A study of Homo sapiens with 12 samples.

Results

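The genes described here are ID1, ID2, ID3 and ID4 with 5 genes that feed back on bone morphogenetic protein (BMP) and SMAD signalling: SMAD6, SMAD7, SMAD9, BAMBI and SKIL. They were chosen by name as a group, and all 9 were found by symbol among the 61860 genes of both count tables. All 9 passed the expression filter in each experiment, with 134 to 14173 reads per library. None therefore entered through one group alone.

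BMP ligands bind paired serine/threonine kinase receptors, which phosphorylate SMAD1, SMAD5 and SMAD9. With SMAD4 these proteins enter the nucleus and induce the ID genes, whose products hold E proteins and other basic helix-loop-helix factors away from DNA. The same signal induces its own brakes: SMAD6 and SMAD7 block the receptors, and BAMBI is a decoy receptor without a kinase. SKIL (SnoN) is a corepressor bound by SMADs. ID genes are known for holding back differentiation and for following growth signals in epithelial and tumour cells.

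RNA was sequenced from 22Rv1, a human prostate cancer line grown from a xenograft tumour, in a study of phosphorylated RB and of ETS1, a transcription factor, in the response to CDK4/6 inhibition. There were 3 libraries in each of 4 groups. One experiment set ETS1 siRNA against its own controls, and the other set siRNA against ZNF783, a zinc finger gene, against controls of its own. All cells were of this one line and were kept in RPMI-1640 with serum. The labels name no drug for any group and give neither the siRNA sequences nor a harvest time. They do not call replicates separate cultures, so p-values speak only of library-to-library spread, which may be technical.

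Library totals ran from 13518177 to 48996691 counts. ETS1 itself had 0 to 3 counts in every library, controls included, so its loss could not be measured. ZNF783 fell with its own siRNA (log2 fold change -0.31, SE 0.055, adjusted p = 2.46e-05), and also with ETS1 siRNA when its replicate 1 was left out (-0.23, adjusted p = 0.00146, against -0.38, adjusted p = 0.258, with it). The 10 luminal prostate markers summed to 3893 to 3953 CPM with ETS1 siRNA and to 3998 to 4011 CPM in its controls (counts scaled to a common library total, with factors from the trimmed mean of M values, TMM). With ZNF783 siRNA they summed to 3730 to 3764 CPM, against 4017 to 4046 CPM. The siRNA libraries thus lay below their controls in both experiments, as ID1, ID2 and ID3 did. Of the 10, 5 were called lower and 0 higher with ZNF783 siRNA, and likewise without ETS1 siRNA replicate 1, while 0 were called over all ETS1 libraries. Among all genes 25.1%, 23% and 0.0461% were called. The 5 leukocyte markers summed to at most 2.48 CPM, the 5 endothelial ones to at most 1.30 CPM and the 4 basal ones to at most 4.49 CPM, with CD3E at 0 throughout. The 5 fibroblast markers summed to 44.8 to 58.1 CPM in the ETS1 experiment and to 13.5 to 18.5 CPM in the other. Nearly all of this was LUM, with means of 48.1 CPM with ETS1 siRNA and 44.2 CPM in its controls. In the ZNF783 experiment LUM stood at 13.7 CPM with siRNA and 16.5 CPM in controls. With ZNF783 siRNA the fibroblast and basal sums also lay below their controls, but each was mostly a single gene, LUM and NGFR. NGFR had means of 2.88 CPM with ZNF783 siRNA and 4.03 CPM in its controls. The part of these markers in the results was not tested. ETS1 siRNA replicate 1 stood apart: against replicates 2 and 3 its chi-square per degree of freedom was 40.3 and 38.9, while all other replicate pairs lay between 1.36 and 2.93. Values with ETS1 siRNA are therefore given without it and over all libraries.

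To let the regulatory sequence of contrasting members be seen beside their values, the stretch before the start of ID1 (below its controls in every siRNA library), SMAD6 (lower with ETS1 siRNA without replicate 1, not called with ZNF783 siRNA) and ID4 (called with ZNF783 siRNA only) is printed 5′ to 3′ on the coding strand. Promoter entries for all 9 genes were matched in RefSeq (GRCh38.p14). The windows cover the 250 bases before the start site and are printed up to the first annotated exon. ID1 is shown at chr20:31605039-31605282, SMAD6 at chr15:66701986-66702227 and ID4 at chr6:19837120-19837369, all on the plus strand. Capitals mark letters that match, on either strand, GGCGCC (a BMP response element), GTCT (the SMAD box), CANNTG (the E-box bound by helix-loop-helix factors) or CCGGAAGT (an ETS motif).
ID1: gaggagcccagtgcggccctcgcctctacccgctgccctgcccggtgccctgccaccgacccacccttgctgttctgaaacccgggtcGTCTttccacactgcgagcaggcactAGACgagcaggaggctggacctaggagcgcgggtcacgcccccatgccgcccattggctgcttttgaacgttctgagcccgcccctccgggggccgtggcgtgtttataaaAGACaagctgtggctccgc
SMAD6: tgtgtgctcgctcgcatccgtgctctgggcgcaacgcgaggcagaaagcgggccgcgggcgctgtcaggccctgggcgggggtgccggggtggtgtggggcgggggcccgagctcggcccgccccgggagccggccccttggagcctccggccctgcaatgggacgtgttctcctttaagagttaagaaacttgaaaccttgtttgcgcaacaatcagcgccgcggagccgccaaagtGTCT
ID4: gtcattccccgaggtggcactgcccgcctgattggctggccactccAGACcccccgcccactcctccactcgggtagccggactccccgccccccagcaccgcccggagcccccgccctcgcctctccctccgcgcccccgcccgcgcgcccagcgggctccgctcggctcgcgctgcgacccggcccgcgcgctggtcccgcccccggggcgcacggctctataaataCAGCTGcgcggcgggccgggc

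In these windows ID1 held 3 SMAD boxes, SMAD6 held 2, of which 1 lies in the bases shown, and ID4 held 1 with 1 E-box. GGCGCC matched in the windows of BAMBI (3 matches) and SKIL (1 match) and in none of the other 7 first-listed windows. The ETS motif matched in 0 of the 9. Of 35116 promoter windows of this length, 16.4% held GGCGCC, 77.5% GTCT, 61.8% CANNTG and 3.42% CCGGAAGT. The ID2 and ID3 windows lie mostly or wholly in annotated exons of these genes in GENCODE release 29 and are not printed. The same holds for 179 of the 250 bases of the BAMBI window and for all of the first SMAD7 window. A match is a string of letters, and its absence here says nothing of the factor elsewhere.

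The 4 ID genes were the strongly expressed members. Per kilobase of exon, on a common scaling of all 12 libraries, ID3 stood highest in every group, at 152 ± 16.2 (SD, n = 3) CPM per kilobase with ETS1 siRNA and 249.6 ± 11.98 in the ZNF783 controls. ID1 came next, at 98.5 ± 8.90 to 185 ± 6.501, and ID2 and ID4 followed, at 64.8 ± 4.77 to 96.3 ± 2.46 and 70.6 ± 1.196 to 76.8 ± 1.29. The libraries of ID2 and ID4 did not overlap within any group; ID2 was the higher in 3 groups and ID4 the higher with ETS1 siRNA. In each group the 4 lay between percentiles 97.1 and 99.7 of the genes tested.

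The feedback genes were lower. SMAD9, a receptor-activated SMAD that is itself a BMP target, held 12.5 ± 0.375 to 18.9 ± 0.413 CPM per kilobase. The group means of SKIL, SMAD7 and BAMBI lay between 4.15 and 7.37 CPM per kilobase, and SMAD6 was the least abundant, at 2.22 ± 0.187 to 3.46 ± 0.0494.

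**Figure D1:**
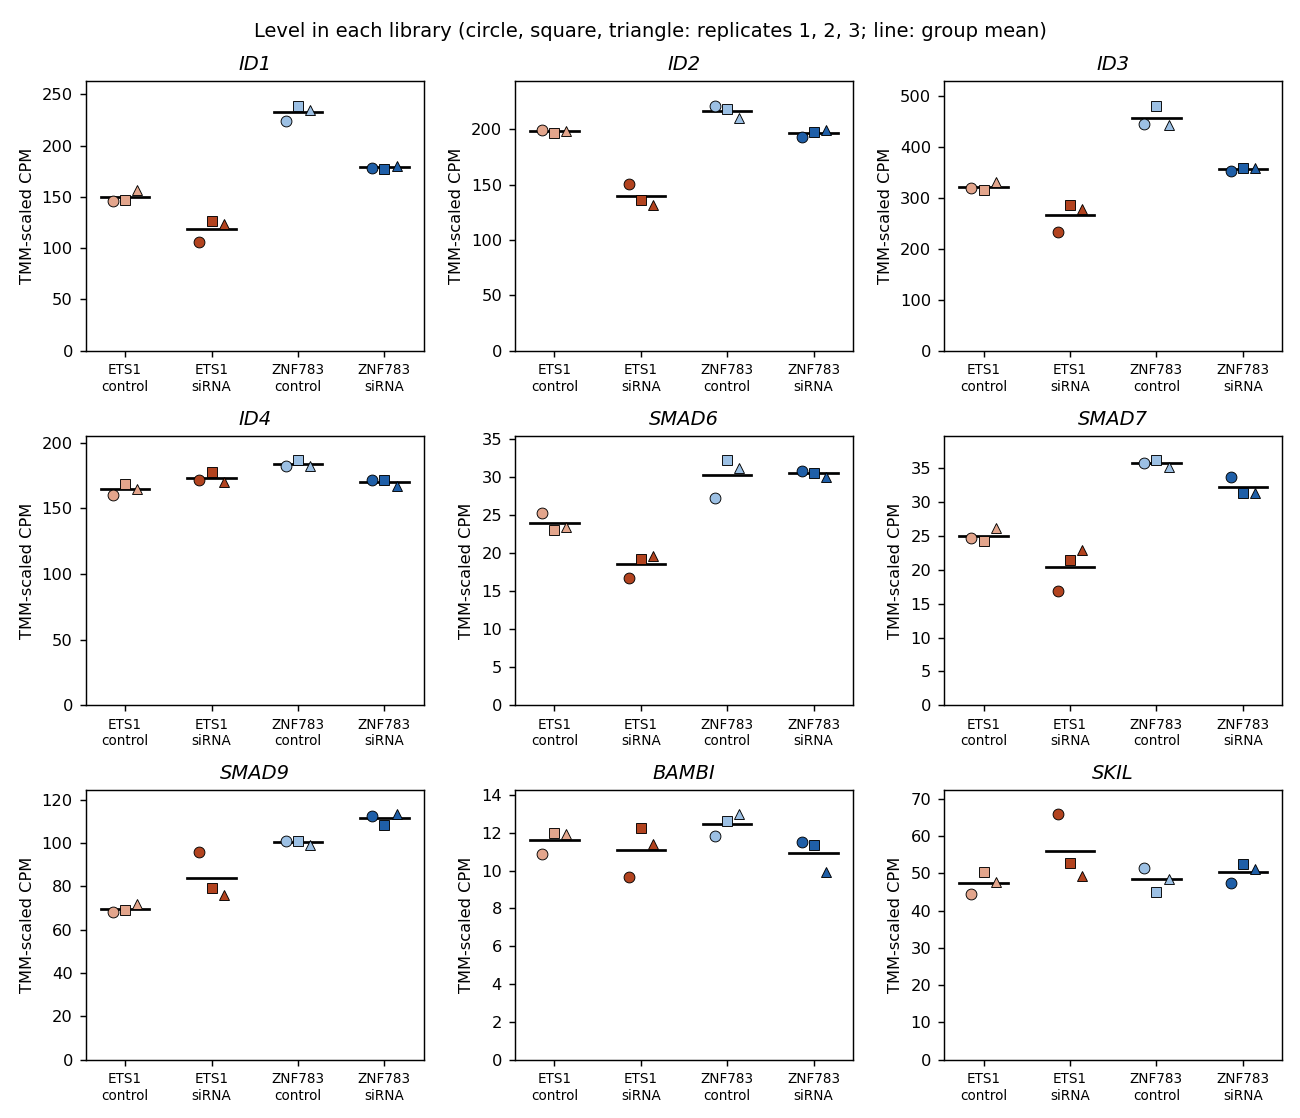
TMM-scaled CPM (y axis, from 0) of the 9 genes in each of the 12 libraries by group (x axis), with symbols for replicates and a line for the group mean. ID1, ID2 and ID3 lie below their own controls with both siRNAs, and ETS1 siRNA replicate 1 (circle) is the lowest or highest of its group for 8 of the 9 genes.

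The first comparison asked how the genes stood when ETS1 was targeted. Over all 6 libraries 0 of the 9 genes passed (edgeR, adjusted p below 0.05 over all genes), where 0.0461% of all genes were called. Of the 9, 6 had an unadjusted p below 0.05, as did 18.1% of all genes. DESeq2 called 3 (ID1, ID2 and SMAD6, all lower) where it called 3.76% of all genes, and limma-voom with quality weights called 6 where it called 19.8%. The median log2 fold change of the 9 was -0.27, against 0.0066 for all genes. Without replicate 1, 5 genes fell (ID1, ID2, ID3, SMAD6 and SMAD7) and 1 rose (SMAD9), that is 6 of 9 where 23% of all genes were called. The median was then -0.19, against -0.0042 for all genes. The siRNA and control libraries did not overlap for 7 of the 9 with replicate 1, and again for 7 without it. Among all genes the shares were 35.3% and 46.6%.

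With ZNF783 siRNA 5 genes fell (ID1, ID2, ID3, ID4 and SMAD7) and 1 rose (SMAD9). That is 6 of 9, where 25.1% of all genes were called. The groups did not overlap for 7 of the 9, against 38.2% of all genes. The median log2 fold change was -0.14, against 0.0017 for all genes. In 1 fit of all 12 libraries, which takes in the wider spread of the ETS1 experiment, 2 of the 9 passed with ZNF783 siRNA (ID1 and ID3), where 4.21% of all genes did, and 5 passed with ETS1 siRNA, where 9.57% did.

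A test of the difference between the siRNAs (the ETS1 siRNA effect minus the ZNF783 siRNA effect) called 1 of 9, where 1.68% of all genes were called: ID2. Without ETS1 siRNA replicate 1 it called 4 of 9 (ID2 and SMAD6 lower, ID3 and ID4 higher), where 13.7% of all genes were called.

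GC content moved with the fold changes. Across genes the log2 fold change ran against GC content with both siRNAs, with Spearman's rho of -0.504 for ETS1 siRNA (-0.363 without replicate 1) and -0.384 for ZNF783 siRNA; genes are not independent replicates. The members' GC content ran from 37.2% (SKIL) to 60.1% (SMAD6), with ID1, ID3 and SMAD7 between 56.7% and 58.2%. After each library was corrected for GC content and gene length, 5 of the 6 calls stood without ETS1 siRNA replicate 1 and 5 of the 6 with ZNF783 siRNA. In both the lost call was SMAD7. With the correction 19.4% and 19.1% of all genes were called. Over all ETS1 libraries, where 0 members were called either way, most values shrank further. The correction moved ID1 from -0.34 to -0.16, ID3 from -0.27 to -0.13 and SMAD6 from -0.37 to -0.21. SMAD7 moved from -0.29 to -0.18, SMAD9 from 0.26 to 0.17 and SKIL from 0.23 to 0.0053, while ID2 moved from -0.51 to -0.48.

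**Figure D2:**
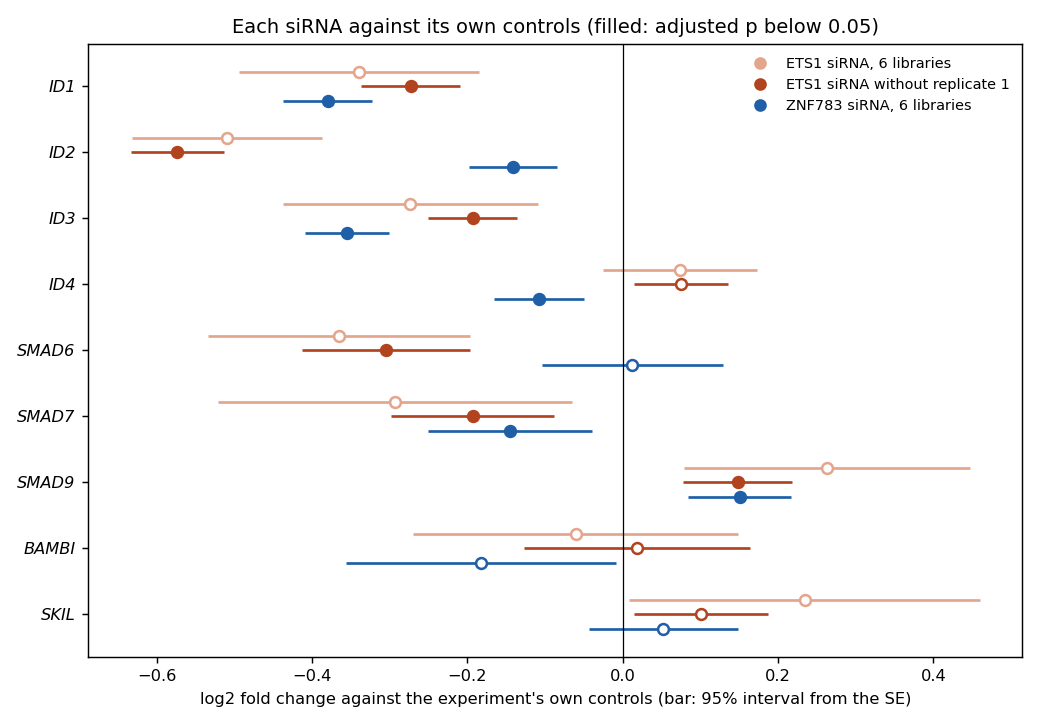
Log2 fold change against the experiment's own controls (x axis) for each gene (y axis), with filled points for adjusted p below 0.05. Bars are 95% intervals from the SE and the normal quantile, which are narrower than the F test allows. The ETS1 siRNA intervals narrow without replicate 1; ID2 at -0.57 against -0.14 and SMAD6 at -0.30 against 0.012 are where the siRNAs lie furthest apart.

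ID1, the inhibitor most closely tied to BMP receptors, lies on chromosome 20 (GRCh38, 31605283 to 31606515, plus strand). In the ETS1 controls it stood at 146, 147 and 157 CPM, and with ETS1 siRNA at 106, 126 and 124 CPM. All siRNA libraries lay below all controls, and replicate 1 was the lowest. The fitted log2 change stood at -0.34 (SE 0.079, adjusted p = 0.143), and without replicate 1 it was -0.27 (SE 0.033, adjusted p = 1.53e-09), 82.8% of the control mean. ZNF783 controls held 224, 239 and 235 CPM, and the siRNA libraries 179, 177 and 181 CPM. These groups were also apart, and ID1 fell by 0.38 on the log2 scale (SE 0.029, adjusted p = 8.75e-14). Corrected for GC content and length, the falls measured -0.19 (adjusted p = 2.31e-07) and -0.31 (adjusted p = 1.30e-13). A difference between the siRNAs was not shown for ID1 (0.053, 95% interval -0.11 to 0.22, adjusted p = 0.816). Without ETS1 siRNA replicate 1 it was 0.11 (adjusted p = 0.103), and it passed there with the GC and length correction (0.11, adjusted p = 0.0275), where 16.1% of all genes were called, the fall with ZNF783 siRNA being the larger.

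ID3, the most abundant of the family, lies on chromosome 1 (23557918 to 23559794, minus strand) and followed ID1. It stood at 320.2, 315 and 331 CPM in the ETS1 controls and at 233, 287 and 279 CPM with ETS1 siRNA. Again replicate 1 was the lowest and the groups were apart. The change was -0.27 (SE 0.084, adjusted p = 0.195), and -0.19 (SE 0.029, adjusted p = 5.23e-07) without replicate 1. With ZNF783 siRNA it stood at 354, 360.0 and 359.6 CPM, below controls at 446, 482 and 445 CPM. The siRNA mean was 78.2% of the control mean (-0.35, SE 0.028, adjusted p = 2.67e-13). Corrected for GC content and length the values were -0.12 (adjusted p = 6.26e-05) and -0.29 (adjusted p = 2.65e-14). The difference between the siRNAs was 0.095 (adjusted p = 0.683) over all libraries and 0.16 (SE 0.040, adjusted p = 0.00367) without replicate 1, the fall with ZNF783 siRNA being the larger.

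ID2 (chromosome 2, 8678845 to 8684453, plus strand), which also binds RB family proteins, had the largest fall among the 9 with ETS1 siRNA. Its control libraries held 199.4, 197 and 199 CPM and its siRNA libraries 150.4, 136 and 132 CPM. Here replicate 1 was the siRNA library nearest to the controls, and no library overlapped. The change was -0.51 (SE 0.063, adjusted p = 0.0591), and -0.57 (SE 0.031, adjusted p = 4.69e-22) without replicate 1, 67.2% of control. The correction for GC content and length left -0.57 (adjusted p = 2.77e-20). With ZNF783 siRNA ID2 stood at 193, 197 and 199.6 CPM against 221, 218 and 210.4 CPM in controls, so that the groups came close without overlapping. That fall was -0.14 (SE 0.029, adjusted p = 0.000202). The ETS1 siRNA fall was the larger, by 0.36 on the log2 scale (SE 0.070, adjusted p = 0.0216). Without replicate 1 the difference was -0.43 (adjusted p = 8.52e-12). With 1 other library left out at a time, the call stood without ETS1 siRNA replicate 3 and was lost for each of the other 10 libraries, with adjusted p from 0.0567 to 0.0804. ID2 shares 38 exonic bases, 1.72% of its exons, with ID2-AS1 on the other strand, and counting did not use strand. Over all libraries ID2 had 55339 counts and ID2-AS1 had 1995.

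ID4 (chromosome 6, 19837386 to 19840684, plus strand), a family member often silenced in prostate tumours, fell with ZNF783 siRNA but was not called with ETS1 siRNA. It stood at 160.2, 169 and 165 CPM in the ETS1 controls and at 172, 178 and 170.3 CPM with ETS1 siRNA. The siRNA libraries lay just above the controls, with a change of 0.074 (SE 0.051, adjusted p = 0.433), or 0.075 (adjusted p = 0.0700) without replicate 1. With ZNF783 siRNA it stood at 172, 171 and 167 CPM against 182, 187 and 182 CPM. The groups were apart, and ID4 fell by 0.11 (SE 0.029, adjusted p = 0.00462), or by 0.13 after correction (adjusted p = 0.000193). The difference between the siRNAs was 0.20 (SE 0.055, adjusted p = 0.0978) and did not pass. Leaving out replicate 1 of the ETS1 siRNA group made it pass (0.18, adjusted p = 0.00134).

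The 4 ID genes can be added per kilobase into one pool. That pool held 465, 466 and 484 CPM per kilobase in the ETS1 controls and 367, 408 and 397 with ETS1 siRNA. It held 595, 629 and 599 in the ZNF783 controls and 489, 493 and 493 with ZNF783 siRNA. In both experiments all siRNA libraries lay below all controls. ID4 made up 15.2 ± 0.495% of the pool in the ETS1 controls and 19.4 ± 0.965% with ETS1 siRNA, and 12.6 ± 0.181% and 14.4 ± 0.290% in the ZNF783 experiment (n = 3 each). ID2's share was 19.5 ± 0.383% in the ETS1 controls. With ETS1 siRNA it was 19.1% in replicate 1 and 15.4% in both of the others. In the ZNF783 experiment ID2's share was 15.9 ± 0.566% in controls and 17.6 ± 0.195% with siRNA.

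**Figure D3:**
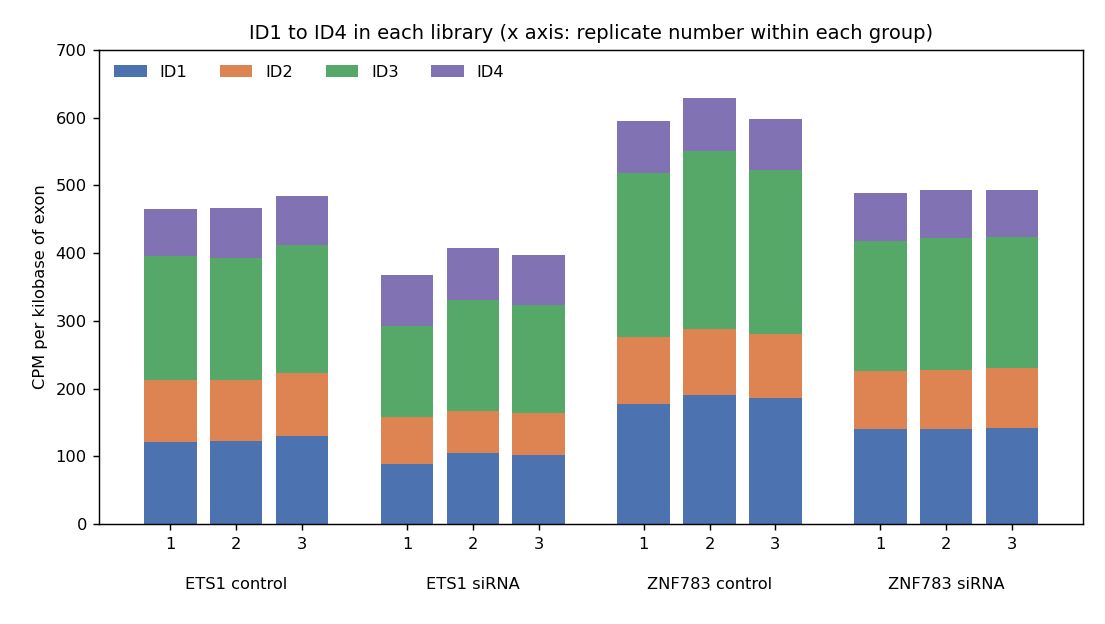
CPM per kilobase of exon (y axis, from 0) of ID1 to ID4 stacked in each library (x axis, replicates by group). The pool is between 367 and 408 with ETS1 siRNA and between 595 and 629 in the ZNF783 controls, and ID3 is the largest band in every library.

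Of the inhibitory SMADs, SMAD6, which acts mainly on BMP receptors, lies on chromosome 15 (66702228 to 66782848, plus strand). It stood at 25.2, 23.1 and 23.5 CPM in the ETS1 controls and at 16.7, 19.3 and 19.7 CPM with ETS1 siRNA. Replicate 1 was the lowest and the groups were apart. The change was -0.37 (SE 0.086, adjusted p = 0.147), and -0.30 (SE 0.055, adjusted p = 1.82e-05) without replicate 1. The value after GC and length correction was -0.21 (adjusted p = 0.00238). With ZNF783 siRNA it stood at 30.8, 30.6 and 30.1 CPM, within the control range of 27.3, 32.3 and 31.2 CPM. No change was shown there (0.012, 95% interval -0.10 to 0.13, adjusted p = 0.909). The difference between the siRNAs was -0.36 (SE 0.11, adjusted p = 0.123). It passed without ETS1 siRNA replicate 1 (-0.32, SE 0.082, adjusted p = 0.00443).

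SMAD7, which blocks both TGF-beta and BMP receptors, lies on chromosome 18 (48919853 to 48952052, minus strand). In the ETS1 controls it stood at 24.7, 24.2 and 26.2 CPM, and with ETS1 siRNA at 16.9, 21.4 and 22.9 CPM. Replicate 1 was well below the other siRNA libraries, and all lay below the controls. The change was -0.29 (SE 0.12, adjusted p = 0.258), and -0.19 (SE 0.054, adjusted p = 0.00503) without replicate 1. With ZNF783 siRNA it stood at 33.7, 31.3 and 31.4 CPM against 35.8, 36.2 and 35.3 CPM, again with no overlap. It fell by 0.15 (SE 0.054, adjusted p = 0.041). This was the least secure of the calls: it was lost with DESeq2 (adjusted p = 0.160) and when any 1 of 5 of the 6 libraries was left out, and the GC and length correction left -0.075 (adjusted p = 0.346) here and -0.12 (adjusted p = 0.0741) without ETS1 siRNA replicate 1.

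SMAD9, which encodes a receptor-activated SMAD with weak activity, was the only member called higher than its controls. It lies on chromosome 13 (36844831 to 36920765, minus strand). ETS1 controls held 68.1, 69.2 and 71.9 CPM, and the siRNA libraries 96.1, 79.2 and 76.1 CPM. Replicate 1 was far above the rest, but the others were also above every control. The change was 0.26 (SE 0.094, adjusted p = 0.236), and 0.15 (SE 0.036, adjusted p = 0.00125) without replicate 1. With ZNF783 siRNA SMAD9 stood at 112, 109 and 113 CPM against 101, 101 and 99.0 CPM, a rise of 0.15 (SE 0.034, adjusted p = 0.000663). Corrected for GC content and length, the rise was 0.10 in each (adjusted p = 0.0163 and 0.0140).

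BAMBI (chromosome 10, 28677342 to 28682939, plus strand) did not pass in any comparison. It stood at 10.9, 11.996 and 11.95 CPM in the ETS1 controls and at 9.65, 12.2 and 11.4 CPM with siRNA, so the groups overlapped. With ZNF783 siRNA it stood at 11.5, 11.3 and 9.90 CPM, all below controls at 11.8, 12.6 and 13.0 CPM. The change there was -0.18 (SE 0.089, adjusted p = 0.133). Its sign with ETS1 siRNA depended on replicate 1: -0.061 (adjusted p = 0.761) with it and 0.019 (adjusted p = 0.901) without it.

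SKIL (chromosome 3, 170357678 to 170396835, plus strand) also did not pass. It stood at 44.4, 50.4 and 47.6 CPM in the ETS1 controls and at 65.8, 52.8 and 49.2 CPM with siRNA. Replicate 1 was high and the others overlapped the controls, and the change was 0.23 (SE 0.12, adjusted p = 0.321), or 0.10 (adjusted p = 0.0942) without replicate 1. With ZNF783 siRNA it was 47.5, 52.4 and 51.2 CPM against 51.5, 45.1 and 48.5 CPM (0.052, adjusted p = 0.482). SKIL had the lowest GC content of the 9, and correction for GC content and length turned both values below 0 (-0.025 without replicate 1 and -0.049 with ZNF783 siRNA, neither called).

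**Figure D4:**
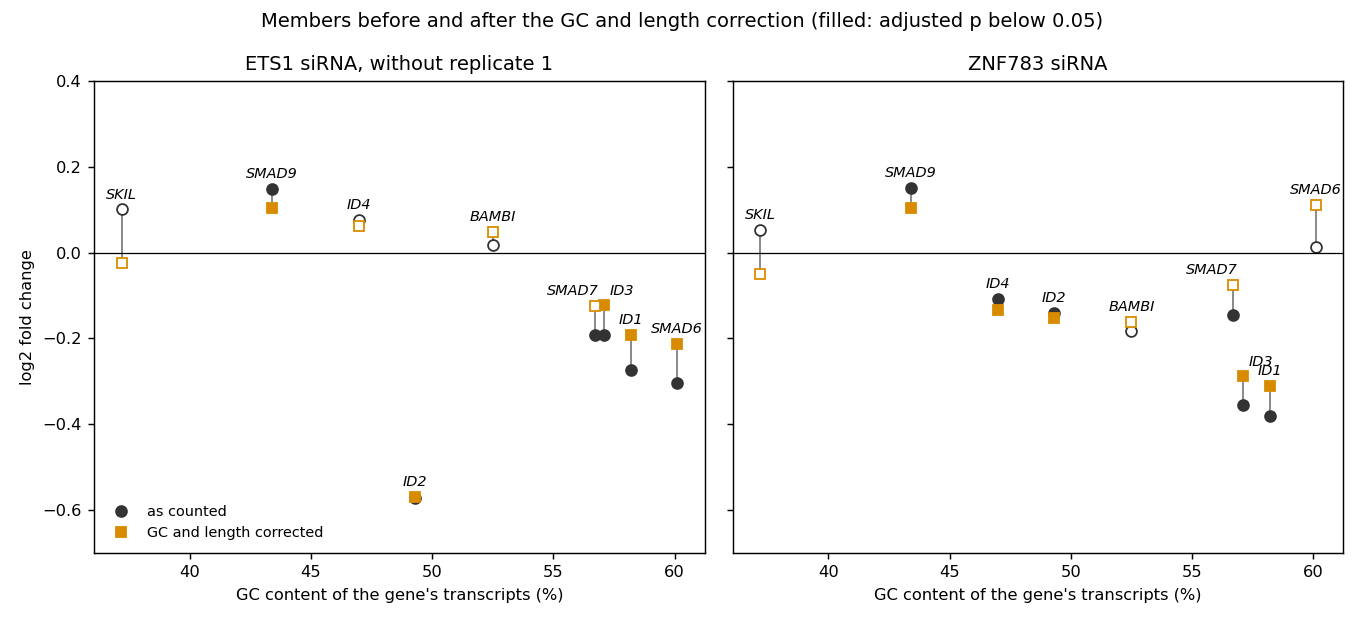
Log2 fold change (y axis) of the 9 genes against the GC content of their transcripts in percent (x axis), as counted (circles) and after GC and length correction (squares), filled where adjusted p is below 0.05. ID2 barely moves, the genes at 56.7% GC and above move up, and SMAD7 loses its call in both panels.

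The experiments also differed in their controls. On the common scaling, the mean of the ETS1 controls was 0.674 times that of the ZNF783 controls for ID1, 0.735 for ID3, 0.732 for SMAD7 and 0.725 for SMAD9. For ID2, ID4 and SMAD6 the ratio was 0.955, 0.936 and 0.826, and in all 7 cases the libraries did not overlap. BAMBI and SKIL overlapped, at 0.973 and 1.03. For ID1, ID3 and SMAD7 the groups ranked from the ZNF783 controls through ZNF783 siRNA and the ETS1 controls down to ETS1 siRNA, each apart from its neighbour. The gap between the controls was thus larger than either siRNA's effect for these 3 genes, and experiment and any other difference between the control groups cannot be told apart.

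As a description over 12 libraries, with levels centred within each experiment, ID1 and ID3 had a Pearson r of 0.986 and SMAD7 had 0.866 with each of ID1 and ID3. SMAD9 ran against them (-0.844 with ID1). ID4 had 0.280 with ID1 and -0.243 with ID2. Libraries of the same group share its condition, so the points are not independent. The genes most like the mean of the 4 ID genes, among 10379 genes of at least 10 CPM, were SOX4 (0.996), GAS2L1 (0.994), CDH24 (0.981), SH3GLB2 (0.981) and ESPN (0.980), where the median gene had 0.0932. Over the 11 libraries left without ETS1 siRNA replicate 1 they were SOX4, GAS2L1, RND2 (0.992), EIF4G1 (0.989) and CHD5 (0.989), with a median of 0.117. SOX4 is a transcription factor of epithelial progenitors. Since it was picked for following the ID genes over these libraries, its fold changes only describe that choice: -0.17 without ETS1 siRNA replicate 1, -0.20 over all ETS1 libraries and -0.32 with ZNF783 siRNA.

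The surrounding pathway was read from 10 lists of named genes. With all ETS1 siRNA libraries 0 of the 107 genes tested in these lists passed. The list calls given below for ETS1 siRNA are therefore those of the edgeR fit without replicate 1. Without it 32 of 110 were called, or 29.1%, beside 23% of all genes. With ZNF783 siRNA 39 of 103 were called, or 37.9%, beside 25.1%. The counts of each list below are to be read against these shares of all genes, 23% and 25.1%. Of these calls, 20 and 29 were also made with the GC and length correction.

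Among the 14 BMP and GDF ligands, ZNF783 siRNA changed 1 of 8 tested: BMP6 fell from 6.65 ± 0.381 to 3.96 ± 0.404 CPM (-0.76, adjusted p = 1.33e-05). In the ETS1 experiment without replicate 1, BMP5 was the 1 of 9 called, and it rose (0.57, adjusted p = 0.00711). Over all libraries it stood at 0.54 (adjusted p = 0.153), and the GC and length correction removed the call (0.43, adjusted p = 0.0594). The BMP6 effects of the siRNAs differed by 0.76 (adjusted p = 0.0193) over all libraries and by 0.79 (adjusted p = 0.000405) without ETS1 siRNA replicate 1. Both list counts lie below the shares of all genes called, 25.1% with ZNF783 siRNA and 23% without ETS1 siRNA replicate 1. The list's median was -0.075 with ZNF783 siRNA, 0.057 without ETS1 siRNA replicate 1 and 0.026 over all ETS1 libraries.

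Among the other ligands of the family, 5 of 12 tested fell with ZNF783 siRNA and 0 rose, with a median of -0.21. GDF15, a stress-induced ligand, fell from 43.8 ± 2.90 to 30.5 ± 2.43 CPM (-0.51, adjusted p = 4.58e-09). GDF11 fell by 0.21, and INHBE was at 0.411 CPM against 1.30 CPM. TGFB1 fell by 0.22, but the GC and length correction left -0.098 (adjusted p = 0.227). Without ETS1 siRNA replicate 1, 2 rose and 1 fell: INHBA, the activin A subunit (0.71, adjusted p = 0.000404), TGFB2 (0.64, adjusted p = 1.20e-05) and TGFB1 (-0.20, adjusted p = 0.0119). Over all libraries they stood at 0.76, 0.83 and -0.093. The correction removed the TGFB1 call here too (-0.094, adjusted p = 0.284) and turned its value to 0.12 over all libraries. The list's median was 0.090 without replicate 1 and 0.094 with it. Of all genes 25.1% were called with ZNF783 siRNA and 23% without ETS1 siRNA replicate 1, the second being near this list's own share.

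The receptors moved in both directions. With ZNF783 siRNA 3 of 14 tested rose and 2 fell, with a median of 0.10, where 25.1% of all genes were called. Without ETS1 siRNA replicate 1, 4 of 15 rose and 1 fell, where 23% of all genes were called. The median there was -0.0039 (0.082 over all ETS1 libraries). BMPR1A, a type I BMP receptor, held 76.8, 77.8 and 79.1 CPM in the ZNF783 controls and 72.3, 71.3 and 69.5 CPM with siRNA. In the ETS1 experiment it held 61.8, 64.4 and 64.3 CPM in controls and 80.8, 71.4 and 72.2 CPM with siRNA. It thus fell with ZNF783 siRNA (-0.13, adjusted p = 0.00862) and rose without ETS1 siRNA replicate 1 (0.17, adjusted p = 0.000241, or 0.11 corrected for GC content and length). Over all ETS1 libraries it stood at 0.24 (adjusted p = 0.180). The effects differed by 0.38 (adjusted p = 0.0246) over all libraries and by 0.30 (adjusted p = 2.01e-05) without ETS1 siRNA replicate 1.

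BMPR2, the type II BMP receptor, fell with ZNF783 siRNA from 118 ± 4.81 to 100.2 ± 1.09 CPM (-0.23, adjusted p = 9.63e-07). It rose by 0.13 (adjusted p = 0.00124) without ETS1 siRNA replicate 1, a call that the GC and length correction removed. With replicate 1, itself at 172 CPM against 122 and 121 CPM, the change was 0.32 (adjusted p = 0.271). ACVR1B, an activin receptor, rose with ZNF783 siRNA (0.12, adjusted p = 0.0231) and fell without ETS1 siRNA replicate 1 (-0.28, adjusted p = 3.66e-08), against -0.32 (adjusted p = 0.112) over all libraries. ACVR2B was called higher in both (0.43, adjusted p = 5.46e-10, and 0.16, adjusted p = 0.00151, the second being 0.13 over all ETS1 libraries).

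The SMADs that carry the signal were higher wherever they were called. SMAD1 stood at 33.1 ± 1.004 CPM in the ETS1 controls and 36.4 ± 1.53 with siRNA, and rose with ZNF783 siRNA from 39.0 ± 3.63 to 44.9 ± 0.885 CPM (0.20, adjusted p = 0.00388). SMAD4, the shared partner, held 100.1 ± 2.80 and 100.4 ± 9.82 CPM in the ETS1 experiment and rose with ZNF783 siRNA from 94.1 ± 1.04 to 107 ± 1.31 CPM (0.19, adjusted p = 3.32e-05). SMAD5 rose by 0.096 with ZNF783 siRNA (adjusted p = 0.0256) and by 0.10 without ETS1 siRNA replicate 1 (adjusted p = 0.00677; 0.083 over all libraries), but the GC and length correction removed both calls. In all, 3 of the 5 rose with ZNF783 siRNA and 1 of the 5 without ETS1 siRNA replicate 1, with medians of 0.096 and 0.077 (0.083 over all ETS1 libraries). Of all genes 25.1% and 23% were called, and the 1 of 5 lies near the second share.

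**Figure D5:**
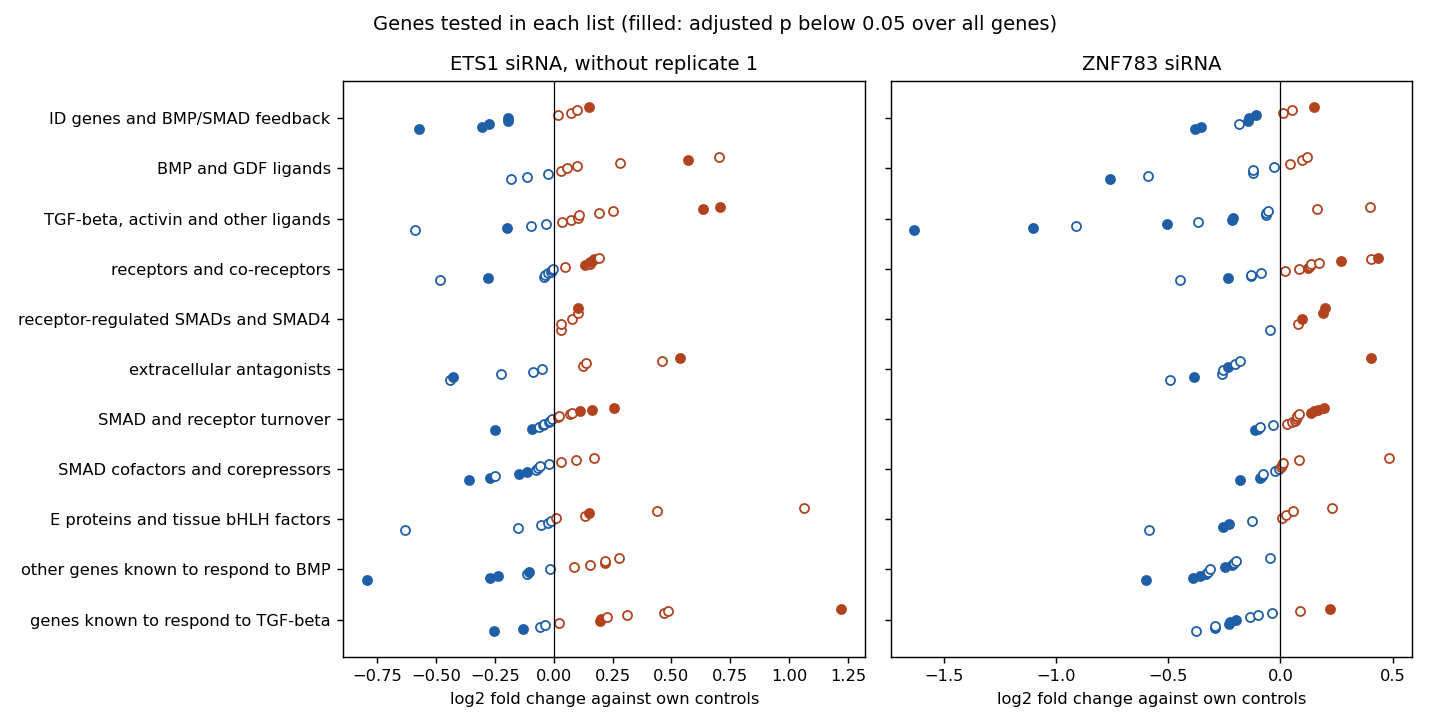
Log2 fold change (x axis) of each gene tested in the 9-gene group and the 10 pathway lists (y axis) with ETS1 siRNA without replicate 1 (left) and ZNF783 siRNA (right), filled where adjusted p is below 0.05 and coloured by sign. With ZNF783 siRNA, called genes of the 12-gene BMP response list lie only below 0 (6 of 11 tested, where 25.1% of all genes were called).

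Of the extracellular antagonists, FSTL3, a follistatin-like activin binder, fell in both, from 49.1 ± 3.87 to 37.4 ± 1.604 CPM with ZNF783 siRNA (-0.39, adjusted p = 2.29e-07) and by 0.43 without ETS1 siRNA replicate 1 (adjusted p = 8.29e-12). The first was -0.23 after the GC and length correction, and the second was -0.62 (adjusted p = 0.194) over all libraries. In all 1 of 8 tested rose (FSTL1, 0.40, adjusted p = 1.85e-05) and 2 fell with ZNF783 siRNA, NBL1 being the other. In the ETS1 experiment without replicate 1, 1 of 9 rose (CHRDL1) and 1 fell. The correction removed the calls of NBL1 and CHRDL1. The medians were -0.25 and -0.052 (-0.088 over all ETS1 libraries). Among all genes 25.1% and 23% were called, the second being near this list's own share.

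Among 15 genes of SMAD and receptor turnover, 4 rose and 2 fell with ZNF783 siRNA. TRIM33, a ligase for SMAD4, rose by 0.17 (adjusted p = 6.69e-05) and SMURF2 by 0.19 (adjusted p = 0.00144). PMEPA1, a membrane inhibitor of TGF-beta signalling, fell from 249.8 ± 2.51 to 233 ± 1.52 CPM (-0.10, adjusted p = 0.00424). Without ETS1 siRNA replicate 1, 3 rose, among them the ligases WWP1 (0.25, adjusted p = 9.47e-09) and NEDD4L (0.16, adjusted p = 0.000147), and 2 fell, USP11 (-0.25, adjusted p = 1.01e-07) and FKBP1A (-0.092, adjusted p = 0.0203). Over all libraries WWP1 stood at 0.36, NEDD4L at 0.24, USP11 at -0.26 and FKBP1A at -0.11. After the GC and length correction TRIM33 was at 0.11, SMURF2 at 0.13 and PMEPA1 at -0.066 with ZNF783 siRNA, and WWP1 at 0.16 without ETS1 siRNA replicate 1, all still called. The medians were 0.071 and -0.0056 (0.038 over all ETS1 libraries), where 25.1% and 23% of all genes were called.

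The SMAD cofactors called were lower in each experiment: 3 of 11 with ZNF783 siRNA (median -0.0070) and 4 of 12 without ETS1 siRNA replicate 1 (median -0.072, and 0.024 over all ETS1 libraries). These shares lie near those of all genes, 25.1% and 23%, and the GC and length correction kept 1 of the 3 and 2 of the 4. TOB1 and TOB2, antiproliferative proteins that bind SMADs, fell by 0.27 (adjusted p = 2.32e-10) and 0.36 (adjusted p = 2.36e-13) without ETS1 siRNA replicate 1. For TOB1 that fall rested on leaving out this library: it stood at -0.023 (adjusted p = 0.952) over all libraries, at 0.089 without replicate 2 and at 0.078 without replicate 3. TOB2 stood at -0.33 (adjusted p = 0.0870) over all libraries. TOB1 fell by 0.083 with ZNF783 siRNA (adjusted p = 0.0391), while TOB2 stood at 0.013 (adjusted p = 0.808). The corepressor CTBP1 was called lower in both, and CREBBP in the ETS1 experiment, but neither kept its call with the GC and length correction.

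The partners that ID proteins sequester were read next. TCF3, which encodes the E proteins E12 and E47, held 104, 106 and 113 CPM in the ETS1 controls and 124, 122 and 118 CPM with siRNA. The siRNA libraries all lay above the controls, with 0.17 (adjusted p = 0.207) over all libraries and 0.15 (adjusted p = 0.000470) without replicate 1. In the ZNF783 experiment controls held 142, 146 and 138 CPM and siRNA libraries 120.5, 123 and 119 CPM, a fall of 0.23 (adjusted p = 3.80e-07). The GC and length correction moved these to 0.26 (adjusted p = 1.33e-09) without ETS1 siRNA replicate 1 and to -0.10 (adjusted p = 0.00601) with ZNF783 siRNA. Uncorrected, the effects differed by 0.42 (adjusted p = 0.00615) over all libraries and by 0.38 (adjusted p = 2.21e-08) without ETS1 siRNA replicate 1.

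The other E proteins, TCF4 and TCF12, passed in neither. TCF4 held 45.8 ± 1.01 CPM in the ETS1 controls and 47.4 ± 5.52 with siRNA, and 45.1 ± 0.872 and 45.8 ± 2.05 in the ZNF783 experiment. TCF12 held 108 ± 0.231 and 117 ± 13.1 CPM, and 96.8 ± 2.30 and 101 ± 1.85. Of the 20 genes of this list, 2 of 8 tested fell with ZNF783 siRNA, TCF3 and ATOH8 (-0.26, adjusted p = 0.000396). In the ETS1 experiment without replicate 1, TCF3 was the 1 of 10 that rose. These shares lie near and below those of all genes, 25.1% and 23%. The medians were -0.060 and -0.00086 (0.047 over all ETS1 libraries).

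Other genes known to respond to BMP were lower with ZNF783 siRNA: 6 of 11 tested fell and 0 rose, with a median of -0.31, where 25.1% of all genes were called. GATA2, an androgen receptor cofactor in prostate cells, fell from 188 ± 7.85 to 147 ± 1.79 CPM (-0.36, adjusted p = 3.69e-12), and DLX3 from 21.5 ± 0.596 to 14.2 ± 1.30 CPM (-0.60, adjusted p = 4.44e-08). HEY1 fell by 0.39 (adjusted p = 0.000215) and UNC5B by 0.33 (adjusted p = 0.000313). Without ETS1 siRNA replicate 1, 4 of 11 fell and 1 rose, where 23% of all genes were called. The median was -0.018, and it was 0.090 over all libraries. DLX2 fell from 19.4 ± 0.772 to 11.3 ± 0.532 CPM (-0.79, adjusted p = 9.25e-15), GATA2 fell by 0.27 (adjusted p = 1.65e-07), and HEY1 rose by 0.22 (adjusted p = 0.0228). Over all libraries DLX2 stood at -0.70 (adjusted p = 0.0738), GATA2 at -0.26 (adjusted p = 0.143) and HEY1 at 0.15 (adjusted p = 0.412). The GC and length correction left GATA2 called at -0.22 with ZNF783 siRNA and at -0.16 without ETS1 siRNA replicate 1. The HEY1 effects differed between the siRNAs by 0.56 (adjusted p = 0.0456) over all libraries and by 0.61 (adjusted p = 3.04e-05) without ETS1 siRNA replicate 1.

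Of the genes known to respond to TGF-beta, 4 of 11 fell and 1 rose with ZNF783 siRNA (median -0.20). Without ETS1 siRNA replicate 1, 3 of 12 rose and 2 fell (median 0.20, and 0.21 over all ETS1 libraries). Among all genes 25.1% and 23% were called. FN1, fibronectin, rose by 0.20 in the ETS1 experiment without replicate 1 (adjusted p = 5.45e-05; 0.31, adjusted p = 0.195, over all libraries) and fell by 0.23 with ZNF783 siRNA (adjusted p = 0.000755), and these effects differed (0.56, adjusted p = 0.0231). JUNB fell in both (-0.25, adjusted p = 5.28e-07, and -0.29, adjusted p = 2.42e-08, the first without ETS1 siRNA replicate 1). The GC and length correction left both called at -0.12 and -0.15. Over all ETS1 libraries JUNB stood at -0.22 (adjusted p = 0.166), and at 0.061 once corrected. SNAI2 was called higher without ETS1 siRNA replicate 1 (1.22, adjusted p = 0.00594), at only 0.616 ± 0.0699 CPM (n = 2) against 0.257 ± 0.0525 in controls, and stood at 1.23 (adjusted p = 0.109) over all libraries.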

How the data were processed

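The authors deposited raw counts per gene, 1 table per experiment. The counts came from featureCounts 2.0.1 run on paired reads over exons of a release 107 GRCh38 annotation, per the file headers; those headers show no strand option, although the kit marks strand, per the labels' protocols. The submitters' processing notes name hg38, and no aligner version is given. Symbols were matched by identifier for 99.8% of genes.

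In R 4.3.3, edgeR 4.0.16 compared each siRNA with its own controls: default expression filter, TMM scaling, robust quasi-likelihood F test on group, Benjamini-Hochberg adjustment over all genes tested, threshold 0.05. The difference between the siRNAs was a contrast in 1 fit of all 12 libraries. DESeq2 1.42.0 and limma 3.58.1 served as alternatives. The 95% intervals, in text and figures, take the SE with the normal quantile. They do not allow for the few libraries as the F test does, and so are too narrow. For SKIL over all ETS1 libraries the interval was 0.0084 to 0.46, while the F test gave an unadjusted p of 0.0805. Values per kilobase and coordinates use GENCODE release 29 (GRCh38). On simulated data, 11 of 100 genes changed 1.3-fold were recovered in the ETS1 comparison (19542 genes) and 92 of 100 in the ZNF783 comparison (17630 genes). At 2-fold 97 and 99 were. The changed genes had a mean of more than 100 counts, and all libraries of a comparison were given the same spread. In the real ETS1 libraries replicate 1 of the siRNA group stood apart, so the ETS1 recovery need not hold for them.

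The members, lists and motifs were chosen with earlier results of these data known. Beside the members, the rule named up to 4 genes with the smallest adjusted p among those called in each list and comparison, 8 fixed signalling genes, and the 5 genes most like the ID genes. Counting error alone sets the floor of 3 counts, 0.0612 to 0.222 CPM by library.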

Additional observations from a re-analysis of the deposited data

Results flagged for a closer look

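The difference itself was tested with edgeR over all 12 libraries, as the ETS1 siRNA effect minus the ZNF783 siRNA effect (log2 scale). For 12 genes of the members and lists the effects of the siRNAs differed, where this test called 1.68% of all 19594 genes tested. Among the members this was ID2, at -0.3554 (adjusted p = 0.0216). It fell in 3 of 3 libraries with each siRNA, and further with ETS1 siRNA.

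Of the E proteins, TCF3 differed by 0.4181 (adjusted p = 0.00615). Of the receptors, ACVR1B differed by -0.4235 (adjusted p = 0.0102) and BMPR1A by 0.3821 (adjusted p = 0.0246). Of the ligands, GDF15 differed by 0.5836 (adjusted p = 0.0127), INHBA by 1.141 (adjusted p = 0.0172) and BMP6 by 0.7623 (adjusted p = 0.0193). TOB2 differed by -0.3314 (adjusted p = 0.0104) and USP11 by -0.3199 (adjusted p = 0.0212). Of the response genes, FN1 differed by 0.5575 (adjusted p = 0.0231), HEY1 by 0.5603 (adjusted p = 0.0456) and LTBP2 by 0.4121 (adjusted p = 0.0487). Many of these calls depended on the processing. Of 22 other settings, LTBP2 was called in 7, ID2 in 10, HEY1 and BMPR1A in 11, and FN1 and USP11 in 12. INHBA and BMP6 were called in 15, TCF3, GDF15 and TOB2 in 20, and ACVR1B in 21. The experiments had separate controls, so experiment and siRNA cannot be told apart in these differences.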

How the results depend on the processing

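With ETS1 siRNA, 9 genes and 0 members were called over 6 libraries. No expression filter gave 253 genes and 1 member, DESeq2 734 and 3, limma-voom with quality weights 3863 and 6, the GC and length correction 41 genes, and 1 fit of all 12 libraries 1875 and 5. Leaving out 1 library gave 0 to 4649 genes and 0 to 6 members, the highest of each without ETS1 siRNA replicate 1; with the GC and length correction added these were 3921 and 5. With ZNF783 siRNA, 4428 genes and 6 members were called, DESeq2 gave 2718 genes, and the 12-library fit 824 genes and 2 members. For the difference, 330 genes and 1 member were called; no filter gave 978 genes, DESeq2 663 and 2, limma-voom 2503 and 4, and the GC and length correction 712 and 2. Leaving out 1 library gave 140 to 2735 genes and 0 to 4 members, the highest without ETS1 siRNA replicate 1, and with the correction added 3225 and 5.

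The same replicate numbers did not pair the samples: same-numbered siRNA and control libraries had correlations of their deviations from -0.0434 to 0.0642, and 2 of 6 (ETS1) and 1 of 6 (ZNF783) correlated best with their own number. The replicate block gave 0 genes with ETS1 siRNA, also with the GC and length correction. For the difference it gave 54 genes and 0 members, and 0 members with the correction.

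Values with the opposite sign to the main fit ran from -0.11 to 0.12. The lowest, CREBBP without ETS1 siRNA replicate 1, was called there (edgeR, adjusted p = 0.00911). With ETS1 siRNA, BAMBI was 0.027 by limma-voom, 0.0062 with the GC and length correction, 0.00072 with the replicate block added and 0.049 with the correction without replicate 1, where SKIL was -0.025. Without 1 library each, BAMBI ran from -0.14 to 0.019, CREBBP from -0.11 to 0.16 and TOB1 from -0.27 to 0.089. CREBBP was -0.091 by limma-voom and -0.076 with the correction without replicate 1, and TOB1 was 0.0040 by library size alone. With the correction, SMAD5 was -0.068, TGFB1 0.12, JUNB 0.061 and LTBP3 0.026, and with the replicate block added they were -0.074, 0.10, 0.045 and 0.026. With ZNF783 siRNA, SKIL was -0.049 with the correction and -0.048 with the replicate block added, and SMAD6 ran from -0.050 to 0.060 without 1 library each. The difference for SMAD9 ran from -0.0033 to 0.19. The cause of these sign changes was not tested. Depth limits BAMBI most, with 134 to 604 counts per library.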
